A study of Homo sapiens with 6 samples.

Results

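Activins, inhibins, growth differentiation factors (GDF) and bone morphogenetic proteins (BMP) are secreted dimers of the TGF-beta superfamily. They signal through type I and type II receptor kinases and SMAD proteins, and follistatins bind some of them outside the cell. The 10 genes examined here were INHBA, INHBB, INHBE, INHA, GDF15, GDF11, BMP2, BMP4, FST and FSTL3, taken by symbol from the 54259 symbols of the deposited count table. They were listed with their difference between the groups already known, so all their values are given as a description, without a test. RNA-Seq was run on MDA-MB-231, a long-established breast cancer line of human origin. The 3 shBry libraries came from cells with a hairpin RNA directed at brachyury, the 3 shNC libraries from cells with a control hairpin, and the labels list no other treatment. The labels name no hairpin sequence, clone or time, and do not say whether the replicates were separate cultures, so p-values measure only the spread between these samples, which may be technical.

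Brachyury, listed under its older symbol T, had 0 counts in all 6 libraries. A count of 0 allows up to 3 counts, or between 0.131 and 0.155 CPM (counts scaled to the library size, here before TMM scaling) per library, so the knockdown could not be checked in these files. Total counts were between 19319411 and 22985371 per library. Markers of MDA-MB-231 cells (VIM, CD44, CAV1, AXL, MSN and FOSL1) summed to between 7890 and 8240 CPM in shNC and between 6860 and 7130 CPM in shBry. Of 6 luminal breast epithelium markers, ESR1, PGR and CDH1 had at most 2 counts in any library. The other luminal markers were detected in every library, with GATA3 at 10.4 and 12.98 CPM and FOXA1 at 5.74 and 6.06 CPM (means of shNC and shBry), and EPCAM was called higher (more than 1.5-fold, with an edgeR adjusted p under 0.05), at 1.55 and 4.28 CPM. The summed level of the luminal markers was between 15.8 and 19 CPM in shNC and between 22.7 and 23.9 CPM in shBry. Of the MDA-MB-231 markers, CAV1 was called lower, at 189 and 87.5 CPM (means of shNC and shBry), and the others were not called. The design text of the series calls the RNA pericardial. Of 6 heart muscle markers, 4 were at 0 counts in all libraries, and of 6 leukocyte markers PTPRC and TYROBP were. The summed leukocyte level was between 1.79 and 2 CPM in shNC and between 0.62 and 1.05 CPM in shBry, and that of 6 fibroblast markers, with DCN at 0, was between 29.9 and 35.3 CPM in all libraries. The summed level of 6 mesothelial markers was between 40.1 and 42 CPM in shNC and between 51.4 and 57.7 CPM in shBry, of which MSLN held the largest part. LRRN4 of this list was called higher and CALB2 lower, the latter with 30, 29 and 222 counts in shNC, so that shNC replicate 3 stood apart, and 21, 14 and 16 counts in shBry. The part of other cell types in the results was not tested. In bulk RNA, fewer cells of a type and less RNA per cell cannot be told apart.

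An activin is a dimer of inhibin beta subunits, and an inhibin joins a beta subunit to the alpha subunit encoded by INHA. Activins act through SMAD2 and SMAD3, whereas most BMP ligands act through SMAD1, SMAD5 and SMAD9. FST and FSTL3 encode follistatin and a follistatin-like protein, which bind activins. INHBE and GDF15 are known as genes that stressed cells switch on through the transcription factors ATF4 and CHOP.

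To show what the promoters of these genes hold, the 250 bases before the gene start were taken from RefSeq, on build GRCh38.p14, for the 7 genes matched there, which leaves INHBE, BMP2 and BMP4. INHBA and FSTL3 are shown because they were far higher in shBry, and INHBB because it is a beta subunit gene that was not. Each is written 5′ to 3′ on the strand of the gene, and capitals mark each match, on either strand, of the 3 core promoter motifs TATAAA (bound by the TATA-binding protein), CCAAT (bound by the factor NF-Y) and GGGCGG (the GC box).
INHBA, chr7:41703091-41703340, minus strand: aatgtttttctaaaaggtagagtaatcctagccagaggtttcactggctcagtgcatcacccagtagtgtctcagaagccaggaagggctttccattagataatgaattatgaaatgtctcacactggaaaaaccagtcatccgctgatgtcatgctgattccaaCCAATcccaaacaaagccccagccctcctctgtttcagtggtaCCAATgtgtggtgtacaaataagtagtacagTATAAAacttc
FSTL3, chr19:676142-676391, plus strand: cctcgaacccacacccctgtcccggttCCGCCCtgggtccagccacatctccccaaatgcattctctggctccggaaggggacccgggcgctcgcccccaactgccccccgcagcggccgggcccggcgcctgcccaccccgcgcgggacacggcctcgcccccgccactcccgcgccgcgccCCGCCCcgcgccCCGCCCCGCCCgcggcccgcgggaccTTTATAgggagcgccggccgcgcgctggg
INHBB, chr2:120345886-120346135, plus strand: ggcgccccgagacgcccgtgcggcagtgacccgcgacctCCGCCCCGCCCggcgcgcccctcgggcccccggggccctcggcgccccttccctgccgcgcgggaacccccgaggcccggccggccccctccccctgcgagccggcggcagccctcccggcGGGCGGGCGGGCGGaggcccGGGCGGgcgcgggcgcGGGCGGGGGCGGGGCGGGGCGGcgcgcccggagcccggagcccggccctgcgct
Of the GDF15 promoter (chr19:18385908-18386157, plus strand), most of which lies in exons of longer transcripts in GENCODE, the 30 bases from 40 to 11 before the start are shown, with TATAAA in capitals: agtccggggacTATAAAggccggtccggca

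A match to TATAAA, the core of the TATA box, was found before 4 of the 7 genes, against 10.7% of all 35116 promoters of the same length. It began 11 bases before the start in INHBA, 29 in GDF15 and 33 in GDF11, and in FSTL3 it lay 29 bases before the start on the opposite strand. GDF11 differed little between the groups and has a match as well. The INHBB promoter had no match to TATAAA and 10 matches, some of them overlapping, to GGGCGG, a GC box. GGGCGG was found in 5 of the 7, FSTL3 and GDF15 among them, against 42.6% of all promoters. In INHBB 89.6% of the bases were G or C, against 80.0% in FSTL3 and 42.8% in INHBA. CCAAT was found in 4 of the 7, against 32% of all promoters. The AP-1 site TGANTCA was found in 2 of the 7, INHA and FST, against 6.57% of all promoters. No match was found in the 7 for TGATGNAA, the C/EBP-ATF response element (3.14% of all promoters), for the cAMP response element TGACGTCA (1.65%), for the T-box site TCACACCT (0.786%) or for the SMAD palindrome GTCTAGAC (0.182%), which says only that these letters are not in these windows. GENCODE exons cover 241 of the 250 bases in GDF15, 220 in FST, 115 in INHA, 27 in FSTL3 and 18 in INHBA. The windows of INHBA, INHA and GDF15 lie wholly inside their GENCODE genes, so these windows do not all precede every annotated start. Both strands were searched, and matches are letters only, not shown to be bound.

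Across the 10 genes, the groups lay furthest apart in INHBE, GDF15, INHBA and FSTL3, all higher in shBry, while BMP4 was lower and BMP2 higher. The 3 shBry values lay above the 3 shNC values in 6 genes and below them in 2 (INHBB and BMP4). Over all 15277 genes that passed the expression filter, 30.6% had shBry above and 28.9% had shBry below. Of the 10, 9 passed that filter, INHBE and GDF15 only through their shBry libraries, and INHA did not. Because the genes were picked on this comparison, nothing is read from these counts.

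**Figure D1:**
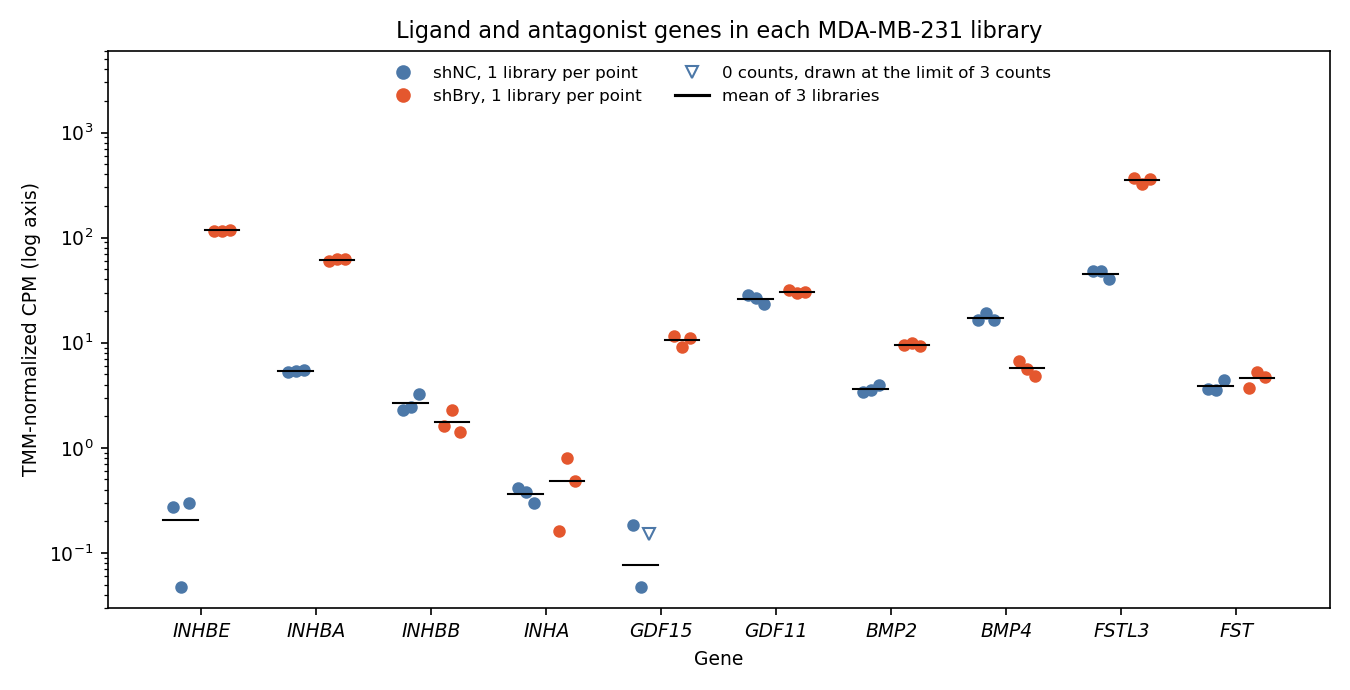
TMM-normalized CPM (log axis) of each gene in each library, with shNC in blue, shBry in orange and the mean of 3 libraries as a black line; the open triangle marks a GDF15 count of 0, drawn at the limit of 3 counts. INHBE, INHBA, GDF15 and FSTL3 stand apart between the groups, while INHA and FST overlap.

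INHBE, which spans 57452323 to 57459280 of chromosome 12 (plus strand, GRCh38), encodes the inhibin beta E subunit, which is best known from liver. It had 6, 1 and 6 counts in shNC replicates 1, 2 and 3, or 0.275, 0.0472 and 0.300 TMM-normalized CPM. In shBry replicates 1, 2 and 3 it had 117, 117 and 119 CPM. Each shBry library was thus far above every shNC library, and the shBry libraries hardly differed. The mean was 0.207 ± 0.139 CPM in shNC and 118 ± 1.55 CPM in shBry (SD, n = 3), and the log2 fold change was 9.11 ± 0.20 (SE). Of the 15277 genes tested, 1 had a higher one. The summed counts of 7639 in shBry and 13 in shNC give a ratio of 570 after scaling, with an exact 95% interval from 333 to 1070 that covers counting error only. On the log2 scale this interval is wider than the SE implies, so the SE understates the error here.

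INHBA, on chromosome 7 from 41667168 to 41705834 on the minus strand, encodes the beta A subunit of activin A. It had 5.26, 5.43 and 5.50 CPM in shNC replicates 1, 2 and 3. In shBry it had 59.3, 63.0 and 63.2 CPM. The groups did not overlap, and each group's values lay close together. The means were 5.40 ± 0.123 CPM in shNC and 61.8 ± 2.22 CPM in shBry (SD, n = 3), and the log2 fold change was 3.52 ± 0.11 (SE), with 70 of the tested genes having a higher one.

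INHBB, on chromosome 2 from 120346143 to 120351808, encodes the beta B subunit of activin B. It had 2.29, 2.46 and 3.25 CPM in shNC and 1.61, 2.27 and 1.42 CPM in shBry. The shBry values were lower, but the highest of them almost touched the lowest of shNC. The means were 2.67 ± 0.515 and 1.77 ± 0.449 CPM (SD, n = 3), and the log2 fold change was -0.58 ± 0.26 (SE). INHA, on the same chromosome from 219569162 to 219575713, had 9, 8 and 6 counts in shNC and 3, 19 and 11 in shBry. The alpha subunit gene thus had at most 19 counts in any library, the groups overlapped, and a difference was not detectable at this depth (ratio of summed counts 1.39, exact 95% interval from 0.793 to 2.48, counting error only).

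Levels of different genes were compared as CPM per kb of exon, with the exon length of GENCODE 29. The 3 beta subunit genes together had 1.44, 1.44 and 1.78 CPM per kb in shNC replicates 1, 2 and 3 and 46.3, 47.0 and 47.7 in shBry. INHBE made up 6.33%, 1.09% and 5.60% of this sum in shNC and 83.5%, 82.4% and 83.1% in shBry. INHBB made up 49.6%, 53.4% and 57.1% in shNC and 1.09%, 1.51% and 0.928% in shBry. INHBA, although far higher in CPM in shBry, made up between 37.3% and 45.5% in shNC and between 15.4% and 16.1% in shBry. Beta subunit transcripts were therefore mainly INHBB and INHBA in shNC and mainly INHBE in shBry. With the longest transcript as the length, INHBE made up between 81.2% and 82.4% in shBry, and INHBA exceeded INHBB in 2 of the 3 shNC libraries. The level of INHA equalled between 9.63% and 16.3% of the beta subunit sum in shNC and between 0.199% and 0.97% in shBry. INHBC, the fourth beta subunit gene, had 13 counts over all 6 libraries and was left out of the sum.

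**Figure D2:**
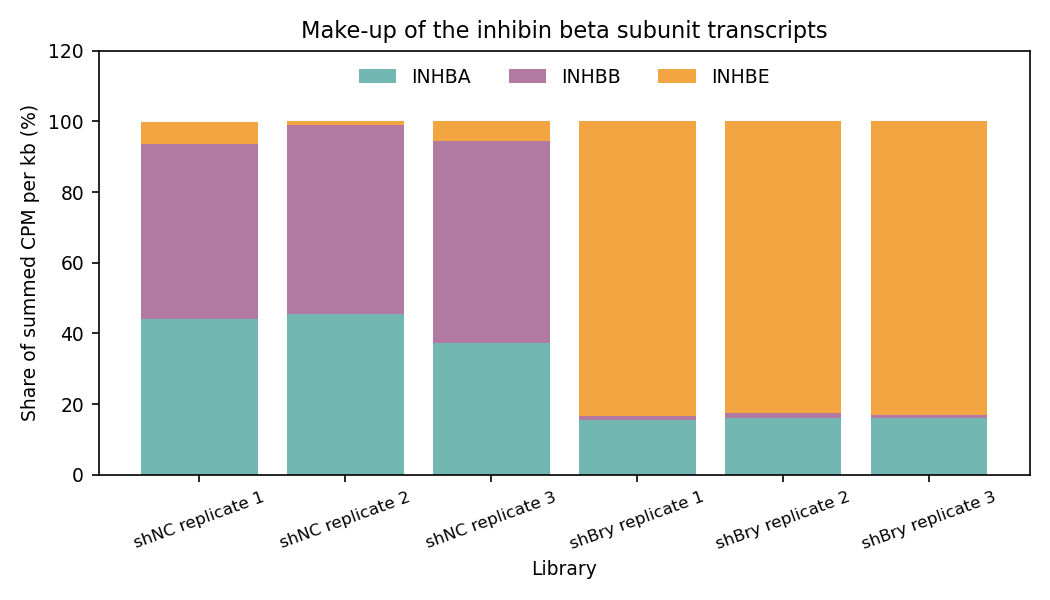
Share of INHBA, INHBB and INHBE in their summed CPM per kb of exon, 1 bar per library (bars start at 0%). INHBE makes up at most 6.33% in the shNC libraries and at least 82.4% in the shBry libraries.

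GDF15, on chromosome 19 from 18374731 to 18389176 on the plus strand, encodes a cytokine that is secreted under stress and acts on the receptor GFRAL in the brain stem. It had 4, 1 and 0 counts in shNC replicates 1, 2 and 3 and 216, 217 and 252 counts in shBry. This corresponds to 0.183, 0.0472 and 0 CPM in shNC, where the count of 0 allows up to 3 counts, and to 11.6, 9.14 and 11.2 CPM in shBry. The gene was almost without counts in shNC and clearly present in each shBry library. The means were 0.0768 ± 0.0951 and 10.6 ± 1.32 CPM (SD, n = 3), and the log2 fold change was 6.97 ± 0.38 (SE). With so few shNC counts the size is loose: it was 8.45 without shNC replicate 1, and the ratio of the summed counts, 685 against 5, was 133 with an exact 95% interval from 56.7 to 411 (counting error only). The SE is narrower than this interval implies on the log2 scale, so it understates the error. GFRAL had no count in any library, and RET, its partner receptor, had 1 count in all.

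GDF11, on chromosome 12 from 55743280 to 55757278, encodes a close relative of myostatin. It had 28.2, 26.6 and 23.4 CPM in shNC and 31.4, 30.02 and 30.4 CPM in shBry. The groups did not overlap, but the distance was small, with means of 26.1 ± 2.45 and 30.6 ± 0.721 CPM (SD, n = 3) and a log2 fold change of 0.23 ± 0.11 (SE). Other genes, SARNP and AC023055.1, overlap 4.46% of its exon bases on the opposite strand, and whether reads were counted by strand is not given in the sources used here. MSTN, the myostatin gene, had 5 counts, all in shBry replicate 2.

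The BMP ligand genes differed in opposite directions. BMP2, on chromosome 20 from 6767664 to 6780280, had 3.39, 3.54 and 3.95 CPM in shNC and 9.47, 9.98 and 9.30 CPM in shBry. Every shBry value was above the shNC values, with means of 3.63 ± 0.292 and 9.58 ± 0.353 CPM (SD, n = 3) and a log2 fold change of 1.40 ± 0.16 (SE). BMP4, on chromosome 14 from 53949736 to 53958761, had 16.3, 18.99 and 16.3 CPM in shNC and 6.72, 5.60 and 4.83 CPM in shBry. Here every shBry value was below the shNC values, with means of 17.2 ± 1.54 and 5.72 ± 0.953 CPM (SD, n = 3) and a log2 fold change of -1.59 ± 0.15 (SE). The proteins are close relatives that bind the same receptors. In CPM per kb, BMP2 was between 0.16 and 0.207 times BMP4 in shNC and between 1.21 and 1.65 times in shBry. With the length of the longest transcript the shBry ratio was between 0.75 and 1.03, so which of them was more abundant in shBry depends on the transcripts counted.

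Of the follistatin genes, FSTL3 was far higher in shBry, whereas the groups overlapped in FST. FSTL3, on chromosome 19 from 676365 to 683399, had 47.7, 48.1 and 40.2 CPM in shNC and 372, 323 and 363 CPM in shBry. All shBry libraries were far above shNC, with means of 45.4 ± 4.44 and 352 ± 26.1 CPM (SD, n = 3) and a log2 fold change of 2.96 ± 0.10 (SE). FST, on chromosome 5 from 53480409 to 53487134, had 3.66, 3.54 and 4.45 CPM in shNC and 3.71, 5.31 and 4.69 CPM in shBry. The groups overlapped, with means of 3.89 ± 0.495 and 4.57 ± 0.804 CPM (SD, n = 3) and a log2 fold change of 0.24 ± 0.20 (SE). In CPM per kb, FSTL3 made up between 89.7% and 92.9% of the sum of FST and FSTL3 in shNC and between 98.3% and 99.0% in shBry. Set against that sum, INHBA stood at 0.0378, 0.0387 and 0.0454 in shNC and at 0.0583, 0.0709 and 0.0635 in shBry, so the transcripts of these activin-binding proteins exceeded those of INHBA in every library. The sum of the 3 beta subunit genes stood at between 0.0851 and 0.122 in shNC and between 0.379 and 0.44 in shBry.

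**Figure D3:**
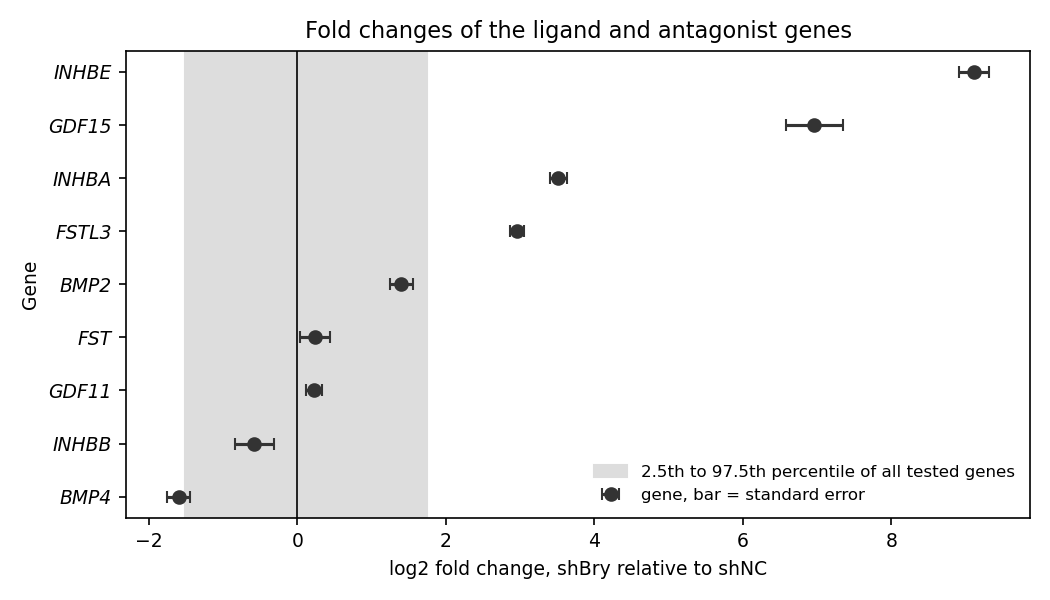
log2 fold change of shBry relative to shNC for the 9 genes that passed the expression filter, with bars for the standard error and a grey band for the central 95% of all 15277 genes tested (-1.51 to 1.75). INHBE, GDF15, INHBA and FSTL3 lie to the right of the band and BMP4 lies just left of it. The bars of INHBE and GDF15, with few shNC counts, are too short.

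Ordered by CPM per kb in shNC, the genes ran from FSTL3 (14.8 ± 1.45, SD, n = 3) through BMP4, GDF11, FST, BMP2, INHBB, INHBA, INHA and INHBE to GDF15 (0.0368 ± 0.0455). In shBry the order was FSTL3 (115 ± 8.52), INHBE (39 ± 0.513), INHBA (7.45 ± 0.268), GDF15 (5.10 ± 0.633), GDF11, BMP2, BMP4, FST, INHBB and INHA (0.275 ± 0.182). Neighbours in the order whose libraries overlapped were BMP2 with INHBB and INHBE with GDF15 in shNC, and BMP4 with FST and INHBB with INHA in shBry. Among 13588 tested genes with a unique length, INHBE stood at percentile 1.21 in shNC and at percentile 90.9 in shBry. GDF15 stood at percentiles 0.427 and 53.2, INHBA at 16.2 and 62.1, and BMP4 at 56.3 and 31.5. Genes low in both groups were not ranked, and INHBE and GDF15 passed the filter only through shBry. Their low shNC percentiles are therefore largely set by the filter. With the longest transcript as the length, INHBA came before INHBB in shNC and BMP4 before BMP2 in shBry.

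For the 6 tested genes of the 10 with a log2 fold change beyond 1 in either direction, the nearest profiles were looked for among 13729 other genes that averaged 1 CPM or more, by the root mean square difference of log2 CPM over the 6 libraries after each gene's shNC mean was subtracted. Nearest to INHBE was LCN2, which encodes lipocalin 2, at a distance of 0.497, and nearest to GDF15 was ALOX5AP, of leukotriene synthesis, at 0.405. Next came CXCL8 for INHBE (1.09) and CXCL2 for GDF15 (0.505). INHBA was nearest to TXNIP, a thioredoxin-binding protein gene (0.0935), and to the immediate-early gene EGR1 (0.0959). FSTL3 was nearest to TAGLN3 (0.0903) and to ATF3, a stress-response transcription factor gene (0.102). BMP2 was nearest to the transcription factor gene ETS1 (0.0458) and to SEL1L3 (0.056). BMP4 was nearest to BAIAP3 (0.0842) and to LOC730102 (0.0962). With 2 groups of 3 libraries, this measure rests mostly on the difference between the groups.

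Genes that neighbour the 10 on the chromosome were not used to pick them. A gene was called where edgeR's quasi-likelihood test gave an adjusted p below 0.05 and the fold change was above 1.5, which held for 17.1% of all 15277 genes as higher and 15.2% as lower in shBry. In GENCODE 29, the 3 beta subunit genes each lie beside a GLI gene of the hedgehog pathway, with GLI1 855 bases from INHBE, GLI3 255116 bases from INHBA and GLI2 383815 bases from INHBB. None of the 3 GLI genes was higher in shBry. GLI3 fell from 32.8 ± 1.56 CPM in shNC to 20.2 ± 2.89 CPM in shBry (mean ± SD, n = 3 in each group), a difference of -0.70 ± 0.12 (SE) on the log2 scale (edgeR, adjusted p = 0.000243). GLI2 fell from 9.77 ± 1.42 CPM in shNC to 5.76 ± 0.731 CPM in shBry, a difference of -0.76 on the log2 scale (edgeR, adjusted p = 0.00155). GLI1 was not called, with 3.29 ± 0.314 CPM in shNC and 2.70 ± 0.454 CPM in shBry, a difference of -0.29 on the log2 scale (edgeR, adjusted p = 0.274). INHBC lies 1495 bases on the other side of INHBE. Its counts were 1, 0 and 1 in shNC and 7, 1 and 3 in shBry, far under those of INHBE.

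Of the 20 nearest protein-coding genes on the 2 sides, 15 had enough counts to be tested. Of these, 1 was called higher and 3 lower in shBry, against 17.1% and 15.2% of all genes, and nothing particular to the neighbours is read from so few. FERMT1, the gene called higher, lies 644120 bases from BMP2 and rose from 23.1 ± 2.58 CPM in shNC to 54.3 ± 1.91 CPM in shBry (mean ± SD, n = 3 in each group), a difference of 1.24 on the log2 scale (edgeR, adjusted p = 3.01e-07). OBSL1, whose span overlaps that of INHA without shared exon bases, fell (log2 fold change -0.87, edgeR, adjusted p = 4.79e-06). PGPEP1, 4781 bases from GDF15, had -0.05 ± 0.13 (SE) on the log2 scale (edgeR, adjusted p = 0.771). RNF126 and CDKN3, beside FSTL3 and BMP4, had 0.58 and -0.56, under the fold change limit.

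**Figure D4:**
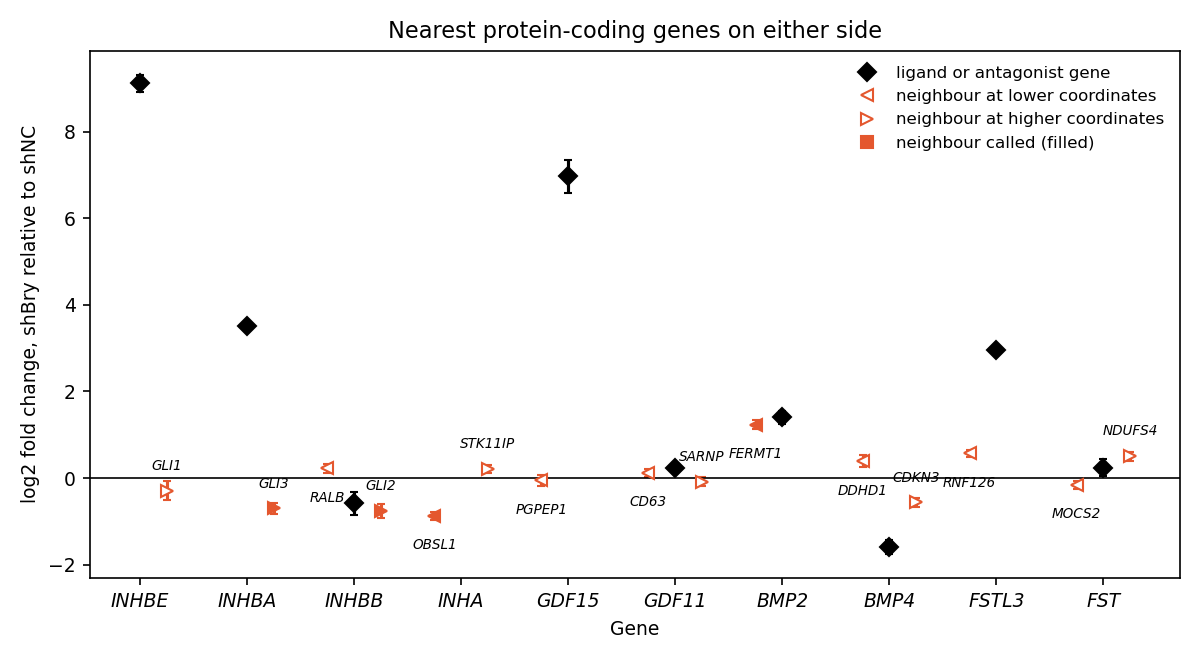
log2 fold change (with standard error) of the 9 tested ligand and antagonist genes (black diamonds) and of their tested neighbours on the chromosome (orange triangles, filled where called). The neighbours of INHBE, GDF15, INHBA and FSTL3 lie between -0.70 and 0.58, far from the genes themselves. The bars of INHBE and GDF15, with few shNC counts, are too short.

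The pathway around these ligands was examined in 7 lists of 107 other genes, of which 20 had no count and 72 could be tested. Of the 72, 22 were called higher and 9 lower in shBry, against 17.1% higher and 15.2% lower of all genes tested. Of the 22, 14 belong to the list of the ATF4 and CHOP response. Without that list, 8 of 57 genes passed the test as higher and 9 as lower, which is near the shares over all genes, with a median log2 fold change of 0.04, against 0.03 over all 15277 genes. None of the lists was tested as a whole. Genes of the lists given below without an adjusted p were named after their values were seen.

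Among receptors and co-receptors, 12 of 18 genes could be tested. Of these, 1 was called higher and 3 lower, against 17.1% and 15.2% of all genes tested. BMPR1B, a type I BMP receptor gene, rose from 0.803 ± 0.344 CPM in shNC to 2.67 ± 0.315 CPM in shBry (mean ± SD, n = 3 in each group), a difference of 1.73 ± 0.31 (SE) on the log2 scale (edgeR, adjusted p = 0.000318). TGFBR3, which encodes betaglycan, the co-receptor through which inhibins block activin receptors, fell from 13.97 ± 0.644 CPM in shNC to 6.15 ± 0.901 CPM in shBry, a difference of -1.18 ± 0.15 (SE) on the log2 scale (edgeR, adjusted p = 1.52e-05). ENG, which encodes the co-receptor endoglin, fell from 226 ± 17.6 CPM in shNC to 134 ± 8.46 CPM in shBry, a difference of -0.76 ± 0.09 (SE) on the log2 scale (edgeR, adjusted p = 4.74e-06), with 7.95% of its exon bases overlapped by a gene on the opposite strand. The third, the BMP co-receptor gene RGMA, had a log2 fold change of -0.66. RGMA was no longer called without shBry replicate 3 or without shNC replicate 1. The activin receptor genes ACVR1B and ACVR2A had log2 fold changes of 0.35 and 0.57, under the fold change limit. ACVR2B, another of them, had -0.16 and overlapped between the groups.

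Among the SMADs and their regulators, all 16 genes could be tested. Of these, 5 were called higher and 2 lower, against 17.1% and 15.2% of all genes tested. BAMBI, which encodes a decoy receptor without a kinase, rose from 6.53 ± 0.325 CPM in shNC to 22.1 ± 3.34 CPM in shBry (mean ± SD, n = 3 in each group), a difference of 1.75 ± 0.15 (SE) on the log2 scale (edgeR, adjusted p = 2.33e-07). SMURF1, a ubiquitin ligase gene for SMADs and receptors, rose from 44.4 ± 1.92 CPM in shNC to 85.1 ± 1.56 CPM in shBry, a difference of 0.94 on the log2 scale (edgeR, adjusted p = 4.81e-07), with 11.7% of its exon bases overlapped by TRRAP on the opposite strand. SMAD6, the inhibitory SMAD of the BMP branch, fell from 9.65 ± 0.541 CPM in shNC to 3.13 ± 0.756 CPM in shBry, a difference of -1.61 ± 0.19 (SE) on the log2 scale (edgeR, adjusted p = 7.36e-06). SMAD9, a BMP-branch SMAD, fell (log2 fold change -0.79, edgeR, adjusted p = 0.00588). The other genes called higher were the co-repressor genes SKIL (1.48) and TGIF1 (0.78) and the inhibitory SMAD7 (0.61). The activin-branch genes SMAD2 and SMAD3 had log2 fold changes of 0.40 and -0.38, under the fold change limit.

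Among 12 genes that respond to BMP in many cells, 9 could be tested. Of these, 1 was called in each direction, against 17.1% higher and 15.2% lower of all genes tested. HEY1 rose from 4.90 ± 0.199 CPM in shNC to 8.20 ± 0.380 CPM in shBry (mean ± SD, n = 3 in each group), a difference of 0.74 on the log2 scale (edgeR, adjusted p = 0.00102). ATOH8 fell from 0.969 ± 0.106 CPM in shNC to 0.455 ± 0.117 CPM in shBry, a difference of -1.07 on the log2 scale (edgeR, adjusted p = 0.0258), but its adjusted p was 0.0881 in DESeq2 and between 0.0737 and 0.0825 in edgeR without shBry replicate 1, shBry replicate 3, shNC replicate 1 or shNC replicate 3. ATOH8 had 7, 14 and 9 counts in shBry and needed its shNC libraries to pass the expression filter. Its direction is thus not independent of the filter. ID1, a widely used BMP target, had a log2 fold change of -0.49, under the fold change limit. RUNX2 and GATA2 had 0.54 and 0.30, also under the limit, and the median of the tested genes of this list was 0.299.

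Of 22 other ligand genes of these families, 10 had no count in any library and 5 could be tested. Of all 54259 genes, 28741 had no count and 15277 could be tested, which are similar shares. AMH, which encodes anti-Müllerian hormone, fell from 11.02 ± 0.806 CPM in shNC to 3.75 ± 0.892 CPM in shBry (mean ± SD, n = 3 in each group), a difference of -1.55 ± 0.18 (SE) on the log2 scale (edgeR, adjusted p = 7.33e-06), with 3.09% of its exon bases shared with MIR4321 on the same strand. Of 17 further secreted antagonists, 9 could be tested. None was called higher and 2 were lower, against 17.1% and 15.2% of all genes tested. WFIKKN1, which encodes a binding protein of GDF11 and myostatin, fell from 1.04 ± 0.215 CPM in shNC to 0.223 ± 0.0867 CPM in shBry, a difference of -2.24 on the log2 scale (edgeR, adjusted p = 0.000659). CRIM1, a BMP-binding protein gene, fell from 194 ± 5.99 CPM in shNC to 125 ± 13.7 CPM in shBry, a difference of -0.63 on the log2 scale (edgeR, adjusted p = 3.91e-05), and was under the fold change limit, at -0.55, without shBry replicate 1. WFIKKN1 had 6, 4 and 4 counts in shBry and passed the expression filter only through shNC. Its direction is thus not independent of the filter. NOG, the noggin gene, had a log2 fold change of 0.05. Of 7 genes for the proteases that process the ligands, 6 could be tested and TLL2 was called, rising from 0.255 ± 0.140 to 0.863 ± 0.222 CPM (log2 fold change 1.74, adjusted p = 0.00753, edgeR). TLL2 had 7, 2 and 7 counts in shNC and passed the filter only through shBry, so the same limit holds for its direction. FURIN, the main convertase, had a log2 fold change of -0.16.

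Of the 15 genes of the ATF4 and CHOP response, 14 were called higher and none lower, against 17.1% and 15.2% of all genes tested. Their median log2 fold change was 2.22. CHAC1, a glutathione-degrading enzyme gene, rose from 8.98 ± 0.288 CPM in shNC to 116 ± 8.86 CPM in shBry (mean ± SD, n = 3 in each group), a difference of 3.69 ± 0.10 (SE) on the log2 scale (edgeR, adjusted p = 3.67e-12). PPP1R15A, which encodes GADD34, rose from 147 ± 4.83 CPM in shNC to 1281 ± 149.7 CPM in shBry, a difference of 3.12 ± 0.10 (SE) on the log2 scale (edgeR, adjusted p = 1.29e-11). The list was written with such a change already known, so it is no independent evidence of its direction. The secreted hormone gene FGF21 of this list had 1, 0 and 0 counts in shNC and 25, 44 and 35 in shBry, a pattern of near absence in shNC like that of GDF15.

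**Figure D5:**
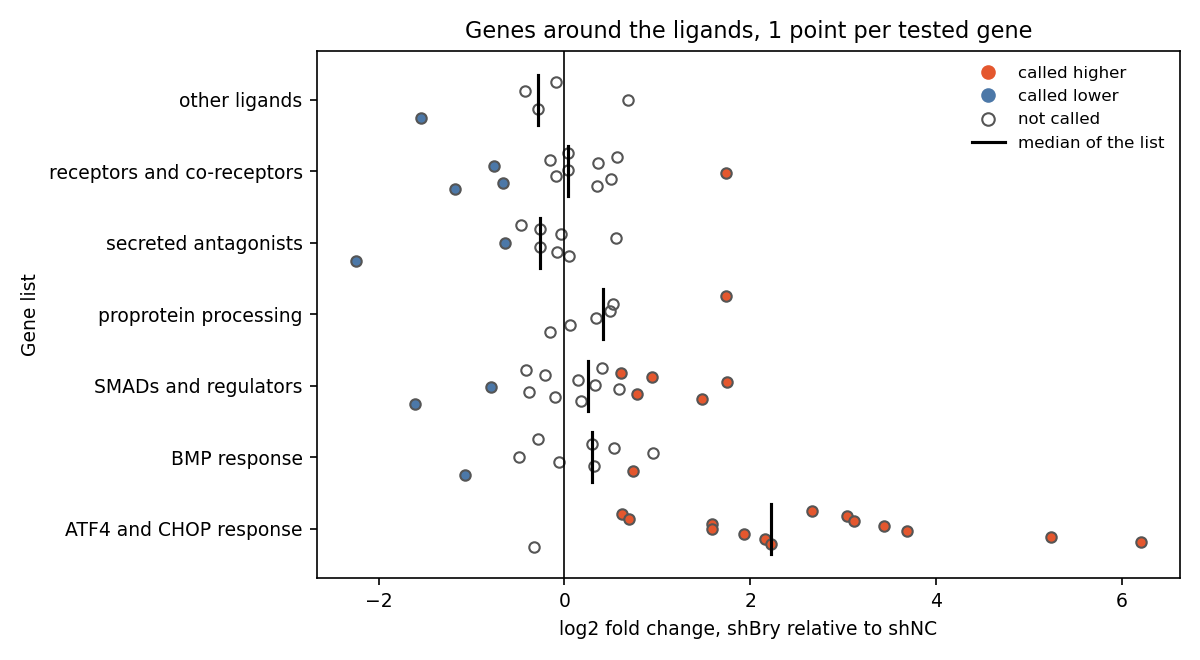
log2 fold change of shBry relative to shNC for the 72 tested genes of the 7 lists, 1 point per gene, filled where called (orange higher, blue lower), with a black line at each list's median. The ATF4 and CHOP response lies to the right of 0 apart from ATF5, while the other lists spread on both sides of 0.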

How the data were processed

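The authors sequenced RNA of MDA-MB-231 shBry and shNC cells, 3 libraries each, and deposited unnormalized counts, that is whole reads assigned to each gene symbol. The submitters' processing notes name HISAT2 2.0.4, HTSeq and GRCh38. The annotation release and strand setting are not given in the sources used here. Replicates differed by more than sampling noise.

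Low genes were removed by filterByExpr of edgeR 4.0.16 (R 4.3.3) at a minimum count of 10. CPM carry TMM scaling, and the groups were tested with the quasi-likelihood method of the same package, after a check on simulated data. A call needed a Benjamini-Hochberg adjusted p, over all genes tested, below 0.05 together with more than a 1.5-fold difference. SE is the absolute log2 fold change over the square root of F, an approximation that is too small for INHBE and GDF15, which had few shNC counts.

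The 10 genes and all lists were chosen with earlier results of these data known. By rule the text names the 10, up to 2 called genes per direction and list with the smallest adjusted p (2 in all for the ATF4 and CHOP response), the nearest profiles and the chromosomal neighbours. Lengths and positions came from GENCODE 29. Alternatives were total counts, DESeq2 1.42.0, other filters, unadjusted p, other fold change limits, a replicate block, each library left out and, for levels, the longest transcript.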

Additional observations from a re-analysis of the deposited data

How the results depend on the processing

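With a fold change limit of 2, 2297 genes in place of 4945 were called and 5 in place of 9 pathway genes were lower, and with no fold change limit 8139 genes were called. Dropping single libraries gave 4587 to 5025 called genes, and among pathway genes between 20 and 23 were higher and between 7 and 9 lower, against 22 and 9. With the replicate number as a block, 4914 genes were called, and 22 pathway genes were higher and 9 lower. Deviations of same-numbered libraries correlated at 0.183, -0.084 and -0.0282, within the range of the differently numbered ones (-0.22 to 0.227). No pairing by number was seen, which so few libraries could miss. Over all alternatives each tested ligand or antagonist gene kept its direction, with log2 fold changes from 8.63 to 9.42 for INHBE, 6.42 to 8.45 for GDF15, 3.49 to 3.54 for INHBA, 2.85 to 3 for FSTL3, 1.35 to 1.44 for BMP2, -1.72 to -1.49 for BMP4 and -0.83 to -0.44 for INHBB. INHBE, GDF15, WFIKKN1, TLL2 and ATOH8 could not be tested with at least 10 counts in every library. There 1 secreted antagonist in place of 2 was lower and no processing gene in place of 1 was higher. No BMP response gene in place of 1 was lower with that filter. With no fold change limit, 5 receptors in place of 1, 3 processing genes in place of 1, 3 BMP response genes in place of 1 and 8 SMADs and regulators in place of 5 were higher, and 2 BMP response genes in place of 1 and 1 ATF4 and CHOP response gene in place of 0 were lower. With the limit of 2, 2 SMADs and regulators in place of 5 and no BMP response gene in place of 1 were higher, and 1 receptor in place of 3, 1 SMAD or regulator in place of 2 and 1 antagonist in place of 2 were lower. Over all 15277 tested genes, calls in either direction went from 4945 to 8139 with no limit and to 2297 with the limit of 2. Nothing particular to the lists is read from their changed counts. Genes with few counts, such as INHA, limit what this depth shows.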
